A study of Mus musculus with 6 samples.

Results

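The renal organic anion and cation transporters described here are 9 genes, namely Slc22a2, Slc22a6, Slc22a7, Slc22a8, Slc22a12, Slc22a13, Slc22a19, Slco1a1 and Slco4c1. They were found by their gene names among the probes that are not controls, which gave 12 probes of the 56605 on the array, and 9 of the 36870 gene names. TA was performed on whole kidneys of 3 female MRL/MpJ mice (MRL mice, the controls) and 3 female mice of the same background that carry the Fas lpr mutation on both copies of the gene (MRL/MpJ-Fas lpr/lpr, LPR mice), all at 6 months of age. LPR mice develop lupus nephritis, and the study compared their kidneys with those of the control strain. For the isolation of RNA, Trizol is named in the paper and a column kit in the sample labels. Each mouse gave 1 array, and the 6 arrays were on 1 slide, so the number of arrays limits the precision.

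These transporters sit in the epithelium of the proximal tubule, the segment that secretes drugs, toxins and waste anions and cations into the urine and takes urate back from it. Carriers of the basolateral membrane take substrates from the blood in exchange for dicarboxylates or driven by the membrane potential, and carriers of the brush border pass them to or from the urine. Many of them depend on transcription factors of the tubule epithelium such as HNF4.

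None of the transporters differed between LPR and MRL mice at the threshold. Of the 9 genes, 8 had a probe that could be tested, and 0 of the 8 passed in limma at an adjusted p under 0.05, against 5.39% of all genes called lower and 7.12% called higher by the brightest probe. Of the 9 probes tested 0 passed, against 6.07% of all probes called lower and 6.54% called higher. The median log2 change of the 8 genes was -0.22, and that of all 39924 tested probes was -0.13. For the brightest probes of the 7 Slc22 genes, the 95% intervals ran from a fold of 0.645 to a fold of 1.29 in LPR over MRL mice. The dim second probe of Slc22a19 lay lower, with an interval of 0.283 to 0.802. The remaining genes, Slco1a1 and Slco4c1, gave signals at or near the background, and only wide bounds or none can be set for them.

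Each probe has 60 bases, is present as 1 spot, and is placed on the mouse genome build mm9. The brighter probe of Slc22a19 and both probes of Slco4c1, the gene with no measured level, are shown as the stretches of transcript that were read. The first of them matched bases spread over 824 bases of the genome (chr19:7757409-7758232, minus strand) and the last over 2135 bases (chr1:98715632-98717766, minus strand), so each crosses at least 1 intron and reads spliced transcript. The capitals mark the longest run shared with a probe of another gene, which was 13 to 17 bases over all 12 probes.
Slc22a19 A_52_P94633: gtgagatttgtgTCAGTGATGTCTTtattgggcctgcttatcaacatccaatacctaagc
Slco4c1 A_51_P306366: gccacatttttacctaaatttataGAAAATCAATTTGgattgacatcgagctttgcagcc
Slco4c1 A_52_P284821: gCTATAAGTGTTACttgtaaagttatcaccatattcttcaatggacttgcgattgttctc

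The values of the arrays are log2 intensities from which the 75th percentile of the array was subtracted, so 0 is the level of that percentile, and levels of different probes are not set against each other. A log2 change is LPR minus MRL. Testing required a signal well above background on 3 or more of the 6 arrays, which held for 9 of the 12 transporter probes. Between 69.6% and 73.5% of the spots of an array were well above background. The 75th percentile of the intensities was 930 on the array of LPR 1 and 700 to 751 on the other 5 arrays. In the same fit 2423 probes were lower and 2610 higher in LPR mice, and 68.3% of the tested probes had a negative log2 change.

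Slc22a6 encodes OAT1 and Slc22a8 encodes OAT3, the carriers that take most organic anions from the blood into the proximal tubule cell, and the genes lie next to each other on chromosome 19. The probe of Slc22a6 (A_51_P360655, NM_008766, chr19:8700868-8700927) read 5.11, 5.48 and 5.59 in MRL 1 to 3 and 4.91, 5.37 and 5.28 in LPR 1 to 3. The groups overlapped, and mouse 1 was the lowest of each group. The log2 change was -0.21 (standard error 0.18, 95% interval -0.63 to 0.21), which did not pass in limma (adjusted p = 0.463). The probe of Slc22a8 (A_51_P127527, NM_031194, chr19:8684762-8684821) read 3.88, 4.08 and 4.30 in MRL mice and 3.89, 4.06 and 4.05 in LPR mice. All 3 LPR mice lay within the range of the MRL mice, and mouse 1 was again the lowest of each group. Its log2 change was -0.09 (standard error 0.14, 95% interval -0.41 to 0.24, adjusted p = 0.699). Without MRL 3, the highest of the 6 mice, the change was 0.02 and thus turned in sign.

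Slc22a7 encodes OAT2, a carrier of smaller anions and nucleotides. Its probe (A_51_P395856, NM_144856, chr17:46569272-46569331) read 5.23, 4.98 and 4.80 in MRL mice and 4.73, 5.26 and 4.87 in LPR mice. Both the highest and the lowest of the 6 mice were LPR mice. The log2 change of -0.05 (standard error 0.18) was the smallest of the 9 tested probes, with a 95% interval of -0.47 to 0.37 (adjusted p = 0.874), and it turned to 0.06 without MRL 1 or without LPR 1.

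Slc22a2 encodes OCT2, which takes organic cations such as creatinine and metformin from the blood into the tubule cell. Its probe (A_51_P161308, NM_013667, chr17:12821245-12821304) read 3.77, 3.80 and 3.58 in MRL mice and 3.47, 3.47 and 3.45 in LPR mice. The 3 LPR mice were closely spaced, with an SD of 0.01 against 0.12 in MRL mice, and all lay below the MRL mice. The log2 change was -0.25 (standard error 0.11, 95% interval -0.50 to -0.0032), and the probe did not pass after adjustment (adjusted p = 0.161). The apical exporters of cations, Slc47a1 (MATE1) and Slc47a2 (MATE2), also did not pass. By the brightest probe, their log2 changes were -0.31 (adjusted p = 0.0953) and -0.38 (adjusted p = 0.107). A dimmer probe of Slc47a2, A_55_P1965045, had the opposite sign (0.07, adjusted p = 0.785).

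**Figure D1:**
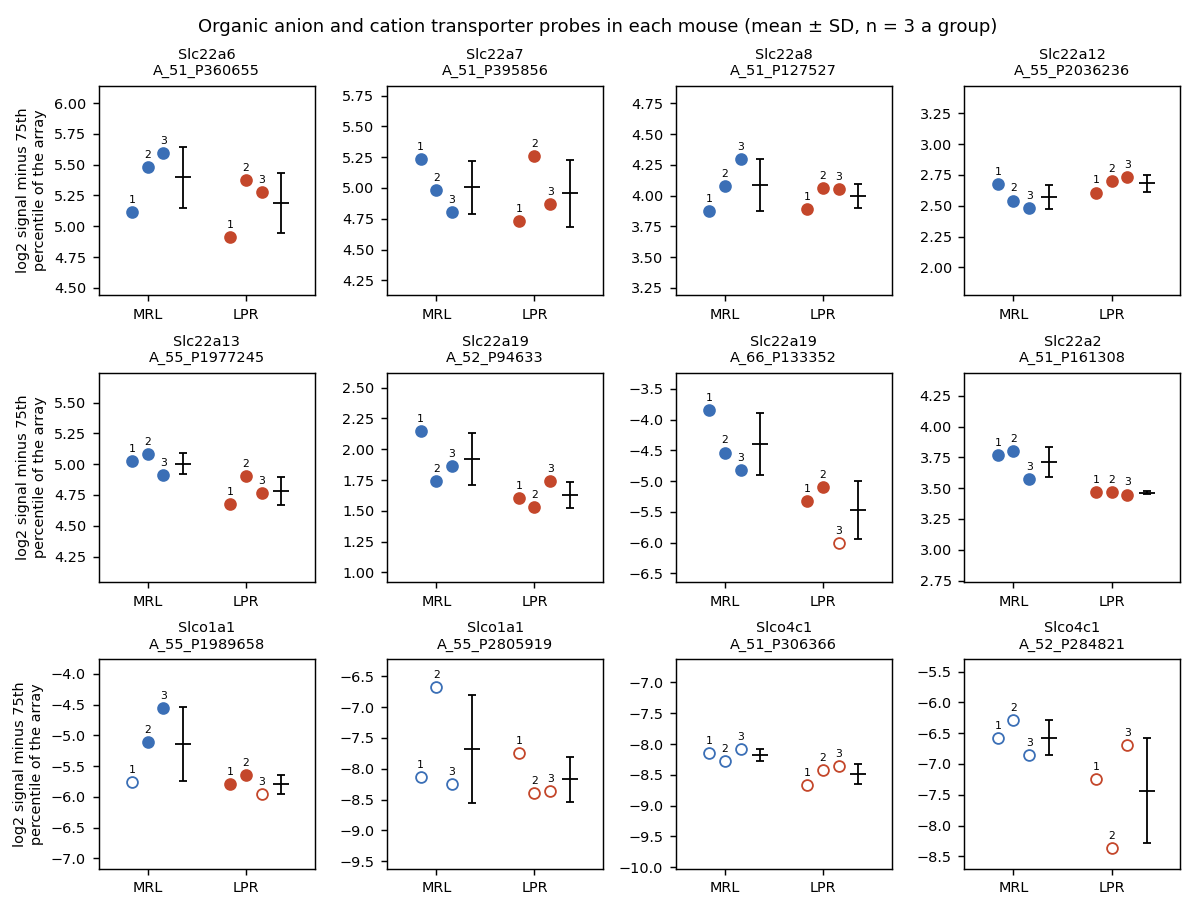
Each panel shows 1 probe, with the log2 signal minus the 75th percentile of the array on the vertical axis and the mice numbered 1 to 3 in each group. Filled points were well above background on their array and open points were not, and the bars beside the points are the mean ± SD of 3 mice. The panels of the dim Slc22a19 probe, Slco1a1 and Slco4c1 have a taller axis than the others. The LPR points of Slc22a2, Slc22a13 and both Slc22a19 probes lie below all MRL points, while those of Slc22a6, Slc22a7, Slc22a8 and Slc22a12 overlap with them.

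The apical carriers include those that exchange urate. Slc22a12 encodes URAT1, the urate exchanger of the brush border. Its probe (A_55_P2036236, NM_009203, chr19:6536084-6536143) read 2.68, 2.54 and 2.49 in MRL mice and 2.61, 2.70 and 2.74 in LPR mice. It was the only one of the 9 tested probes with a positive log2 change, 0.11 (standard error 0.10, 95% interval -0.14 to 0.36, adjusted p = 0.499), and the groups overlapped.

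Slc22a13 encodes OAT10, which exchanges urate and nicotinate. Its probe (A_55_P1977245, NM_133980, chr9:119102121-119102180) read 5.02, 5.08 and 4.91 in MRL mice and 4.68, 4.90 and 4.77 in LPR mice. The groups did not overlap, but the highest LPR mouse came close to the lowest MRL mouse. The log2 change was -0.22 (standard error 0.11, 95% interval -0.48 to 0.04, adjusted p = 0.222).

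Slc22a19 encodes OAT5, an apical exchanger of steroid sulfates and other anions, and was measured by 2 probes that gave changes of different size. The intron-crossing probe A_52_P94633 (NM_144785), whose sequence is given above, read 2.15, 1.74 and 1.86 in MRL mice and 1.60, 1.53 and 1.74 in LPR mice. The groups did not overlap, but MRL 2 and LPR 3 differed by less than the digits shown. The log2 change was -0.29 (standard error 0.14, 95% interval -0.62 to 0.03, adjusted p = 0.205). The dim probe A_66_P133352 is placed nearby (chr19:7757092-7757151) by an Ensembl transcript, and its signal was well above background in all 3 MRL mice and in 2 of 3 LPR mice. It read -3.84, -4.54 and -4.82 in MRL mice and -5.32, -5.10 and -6.00 in LPR mice, without overlap. Its log2 change of -1.07 (standard error 0.32, 95% interval -1.82 to -0.32) came closest to the threshold among the 9 probes (adjusted p = 0.0732). Over 20 alternatives its adjusted p ran from 0.0406 to 0.331. It passed in 2 of them, with normexp background correction (change -0.38, adjusted p = 0.0406) and with the replicate number as a block (adjusted p = 0.0460), and was farthest from the threshold with the slide column in the fit (change -0.91, adjusted p = 0.331). With the mean of both probes, Slc22a19 had a log2 change of -0.68 (adjusted p = 0.0660). The difference between the probes was not tested.

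Slco1a1 and Slco4c1 encode carriers of the OATP family, which transport conjugated steroids, thyroid hormones and cardiac glycosides. The probe A_55_P1989658 of Slco1a1 (NM_013797, chr6:141856493-141856552) gave a signal well above background in 2 of 3 mice of each group. It read -5.75, -5.11 and -4.55 in MRL mice and -5.79, -5.64 and -5.95 in LPR mice, so MRL 1 lay among the LPR mice. The log2 change was -0.66 (standard error 0.29, 95% interval -1.34 to 0.02, adjusted p = 0.178). The value rested on single mice: without MRL 1 it was -0.97 and passed (adjusted p = 0.0473), and without MRL 3 it was -0.36 (adjusted p = 0.359). With normexp background correction it was -0.27 (adjusted p = 0.118). The other Slco1a1 probe, A_55_P2805919 (chr6:141857328-141857387), and both probes of Slco4c1 were well above background on 0 of 6 arrays. Their readings lay between -8.67 and -6.29, with no level that could be compared. The Slco4c1 probes are A_51_P306366 (chr1:98734041-98734100) and A_52_P284821, whose sequences are given above (NM_172658).

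**Figure D2:**
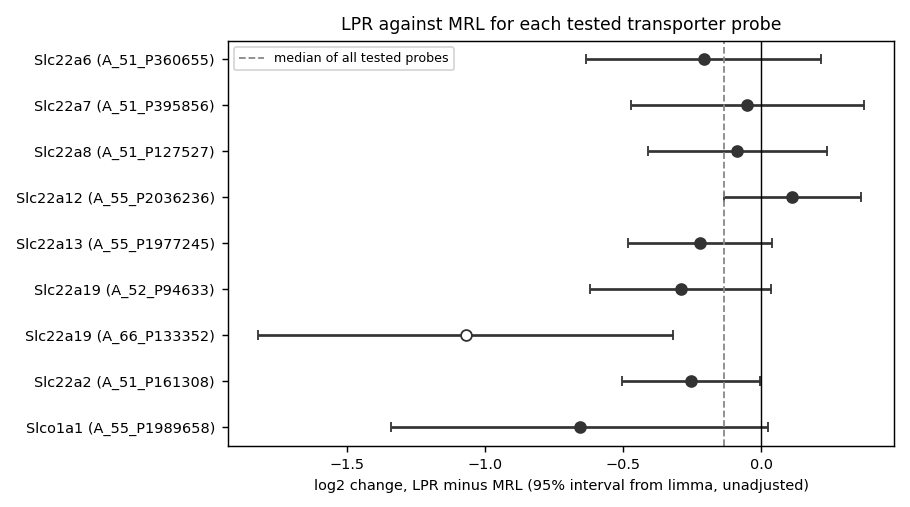
The horizontal axis gives the log2 change, LPR minus MRL, of the 9 tested probes with its 95% interval from limma, not adjusted for the number of probes. Filled points are the brightest probe of a gene, the open point is the dim Slc22a19 probe, and the dashed line is the median of all tested probes at -0.13. The points of the 7 brightest Slc22 probes lie between -0.29 and 0.11, and the intervals of the dim Slc22a19 probe and of Slco1a1 are the widest.

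Over the 9 tested probes, 8 had a negative log2 change, against 68.3% of all tested probes. In 4 of the 9 the LPR mice all lay below the MRL mice (Slc22a2, Slc22a13 and both probes of Slc22a19), against 26.6% of all tested probes, and in 0 of the 9 all lay above, against 11.1%. At an unadjusted p under 0.05 in limma, 2 of the 9 would have passed, those of Slc22a2 and the dim Slc22a19 probe. Both were lower. By that measure, 8123 of all 39924 tested probes were lower and 3942 higher.

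The mice of a group did not keep 1 order over the transporters. In MRL mice, MRL 1 was the highest for Slc22a7, Slc22a12 and both Slc22a19 probes and the lowest for Slc22a6, Slc22a8 and Slco1a1. In LPR mice, LPR 1 was the lowest for Slc22a6, Slc22a7, Slc22a8, Slc22a12 and Slc22a13. LPR 1 is the array with the highest 75th percentile, and the part of this in the result was not tested. Without LPR 1 no transporter passed and the log2 change of Slc22a6 was -0.07 (adjusted p = 0.818). Among the 7 Slc22 genes, the SD over 3 mice ran from 0.08 to 0.25 in MRL mice and from 0.01 to 0.27 in LPR mice.

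**Figure D3:**
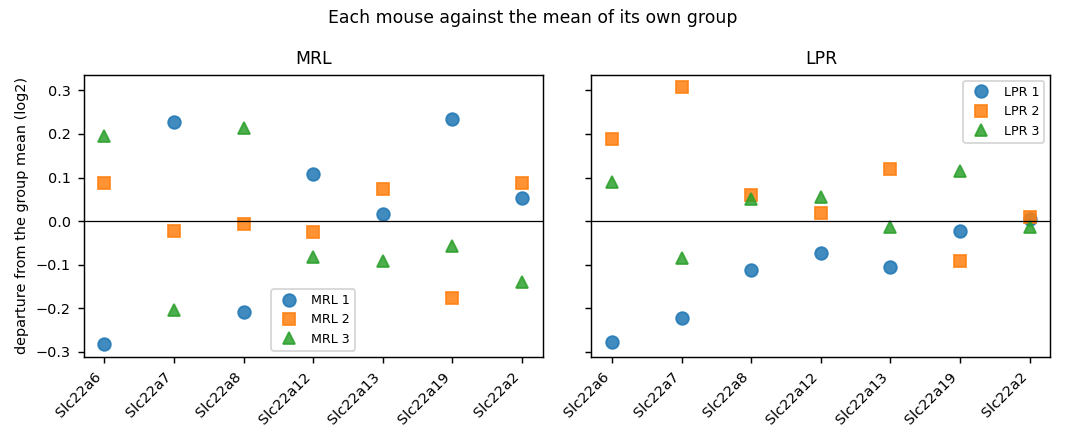
The vertical axis gives the log2 departure of each mouse from the mean of its own group for the brightest probe of the 7 Slc22 genes, MRL mice on the left and LPR mice on the right. LPR 1 lies below its group mean for all but Slc22a2, where the 3 LPR mice nearly coincide, while MRL 1 lies above its mean for 5 of the genes and below it for Slc22a6 and Slc22a8.

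Related genes on which the transporters depend, or that share their substrates, were examined in 8 lists with 61 genes, of which 55 had a tested probe. By the brightest probe, 13 of the 55 fell in limma, 1 rose and 41 did not pass, and the median log2 change was -0.29. The shares over all genes are 5.39% lower and 7.12% higher. The count of 13 was not stable when 1 mouse was left out. It was 11 without LPR 2, but 2 to 4 when MRL 1, MRL 2, MRL 3, LPR 1 or LPR 3 was left out. The lower probes over the whole array fell in number too, from 2423 to between 749 and 2270. The cause was not tested. Of the 14 genes that passed, Slc5a12 and Slc22a16 still did so whichever of the 6 mice was left out, and each of the others in at most 3 of these 6 fits.

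The dicarboxylates that OAT1 and OAT3 give in exchange enter the tubule cell through sodium-coupled carriers such as Slc13a2 and Slc13a3. Slc5a12 and Slc5a8, other carboxylate carriers, were in the same list. Slc13a2 (NaDC1), which takes citrate and succinate from the urine, fell from 3.63 ± 0.12 (SD, n = 3) to 2.76 ± 0.32 (SD, n = 3) and was thus 1.83-fold lower (log2 change -0.87, adjusted p = 0.0220). Slc5a12, an apical lactate carrier, fell by 0.84 on the log2 scale (adjusted p = 0.00861), from 5.45 ± 0.20 (SD, n = 3) to 4.61 ± 0.08 (SD, n = 3). Slc13a3 (NaDC3), the basolateral dicarboxylate carrier that works beside OAT1, had a log2 change of 0.04 (adjusted p = 0.865). Slc5a8 did not pass, with a log2 change of -0.95 (adjusted p = 0.0552).

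Of the other 16 Slc22 genes, 5 fell and 1 rose by the brightest probe, and a dimmer probe of Slc22a15, A_55_P2721043, was higher (0.71, adjusted p = 0.0342). Rodent anion transporters of the chromosome 19 cluster were among those that fell, namely Slc22a27 (log2 change -0.80, adjusted p = 0.0321), Slc22a28 (2.01-fold lower, adjusted p = 0.0288) and Slc22a29 (log2 change -0.74, adjusted p = 0.0353). Slc22a30, which lies beside Slc22a8, did not pass by its brightest probe (-0.63, adjusted p = 0.102), although the dimmer probe A_66_P101000 did (-0.94, adjusted p = 0.0322). Slc22a26, which lies beside Slc22a19, had a log2 change of 0.40 (adjusted p = 0.398). Members of such a cluster are similar in sequence, and cross-hybridization between their transcripts was not tested. The organic cation and carnitine transporters Slc22a4 (-0.62, adjusted p = 0.0221) and Slc22a21 (-0.56, adjusted p = 0.0317) also fell. Slc22a3, the OCT3 gene, which lies beside Slc22a2, had a log2 change of -0.25 (adjusted p = 0.194). Slc22a16, a carnitine carrier known from testis and leukocytes, rose by 1.09 on the log2 scale (adjusted p = 0.00284), from -3.86 ± 0.18 (SD, n = 3) to -2.77 ± 0.14 (SD, n = 3). Whether these changes differ from those of the 9 transporters was not tested.

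Of the 7 tested genes among the other Slco transporters 0 passed by the brightest probe, and their median log2 change was -0.07. A dimmer probe of Slco2b1, A_66_P119400, was lower (-0.59, adjusted p = 0.0410). Of the 9 anion efflux pumps, Abcc1 (-0.62, adjusted p = 0.0396) and Abcc2 (-0.60, adjusted p = 0.0268), which encodes the apical pump MRP2, fell. Abcc4, the apical pump MRP4, had a log2 change of 0.07 (adjusted p = 0.864). Abcg2, which exports urate, did not pass by its brightest probe (-0.13, adjusted p = 0.401). A dim Abcg2 probe, A_55_P2925527, exceeded the background well in all 3 LPR mice but in 0 of 3 MRL mice. The measured log2 change was 1.42 (adjusted p = 0.00413), with a bound of at least 2.26-fold. This probe could be tested only through the LPR mice, so its p-value is no support for a rise of Abcg2. Another dim probe of the same transcript, A_55_P2934748, was well above background in all 3 mice of each group. Its log2 change was -0.50 (adjusted p = 0.101). Abcc3 did not pass by its brightest probe (-0.12, adjusted p = 0.674), while its dimmer probe A_52_P622067 was lower (-0.47, adjusted p = 0.0387). Among the 5 urate and Slc17 anion carriers 1 fell by the brightest probe, Slc17a4 (-0.66, adjusted p = 0.0468). Dimmer probes of Slc17a2 (A_55_P2143896, -0.92, adjusted p = 0.00764) and Slc17a3 (A_55_P2738327, -0.97, adjusted p = 0.0334) were also lower. Of the 3 PDZ scaffold genes 0 passed.

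Of the 9 transcription factor genes known for these transporters, 3 fell, among them Nr1h4 and Ppara. The brightest Hnf4a probe had a log2 change of -0.15 (adjusted p = 0.520), while its dimmer probe A_52_P69656 fell by 0.60 on the log2 scale (adjusted p = 0.0127). Nfe2l2, which encodes NRF2, did not pass by its brightest probe (-0.30, adjusted p = 0.405), while A_55_P2720430 was lower (-0.57, adjusted p = 0.0151). Nr1h4, the bile acid receptor FXR, changed by -0.64 (adjusted p = 0.0197), and Ppara, the fatty acid sensor, by -0.89 (adjusted p = 0.0322).

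**Figure D4:**
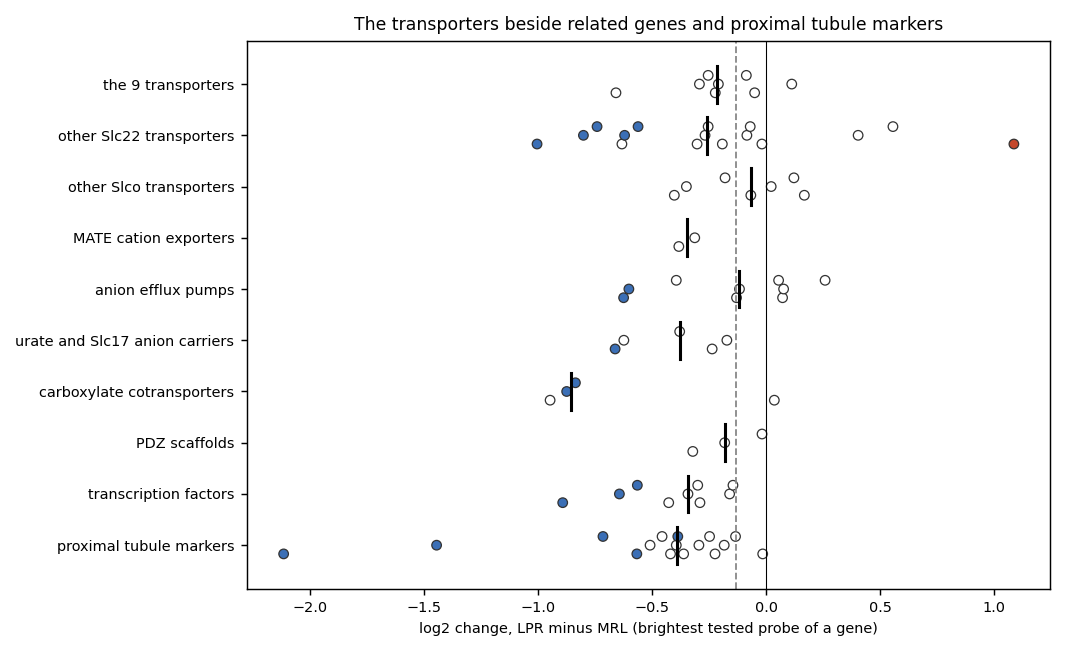
Each point is the brightest tested probe of a gene, placed by its log2 change, LPR minus MRL, in 10 rows for the transporters, the 8 related lists and the proximal tubule markers. Blue points passed in limma and were lower, the red point passed and was higher, open points did not pass, and the thick bars are list medians. All 8 points of the transporters are open, and the dashed line marks the median of all tested probes at -0.13.

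In whole kidney, fewer cells of a type and less RNA per cell cannot be told apart. All 16 proximal tubule markers were tested, so the tissue of these transporters was present on the arrays. Of the 16, 5 fell (Lrp2, Pck1, Slc4a4, Slc5a2 and Slc7a13), 0 rose, and the median log2 change was -0.39. The summed linear level of these markers, in units of the 75th percentile, was 1895 to 2157 in MRL mice and 1481 to 1645 in LPR mice, without overlap. The summed level of the 8 transporters was 144 to 150 in MRL mice and 117 to 147 in LPR mice, with overlap. The brightest probes weigh most in such sums. By single genes, the LPR mice all lay below the MRL mice for 10 of the 16 markers and 3 of the 8 transporters. The share over all tested probes is 26.6%. Whether the transporters and the markers differ in this was not tested. Markers of other tubule segments had negative median log2 changes too. These were -0.52 for the thick ascending limb, -0.78 for the distal convoluted tubule and -0.33 for the collecting duct. All 5 T cell markers rose, by 1.89 to 4.64 on the log2 scale, with a summed level of 1.07 to 1.33 in MRL mice and 9.12 to 10.8 in LPR mice. All 5 macrophage markers rose, by 0.55 to 3.43 on the log2 scale, with a summed level of 22.5 to 30.1 in MRL mice and 112 to 125 in LPR mice. Their part, and that of the fall of the tubule markers, in the results for the transporters and the related genes was not tested. Of the 6 tested markers of injured tubules, Lcn2 and Vcam1 rose and the other 4 did not pass. The log2 changes of the 6 ran from -0.71 to 2.28, with a median of 0.44. Of the 5 housekeeping genes 0 passed.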

How the data were processed

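The authors deposited, for each array, intensities from Agilent Feature Extraction 12.0.3.1, background-subtracted and detrended within the array, and a table of the same intensities divided by a percentile of each array, a ratio used as an alternative. Here control spots and outlier spots (73 to 90 per array) were omitted, log2 was taken, each array's 75th percentile over the remaining spots was subtracted, and spots of 1 probe were averaged. The 39924 probes well above background on at least 3 of 6 arrays were compared by limma 3.58.1 in R 4.3.3, two-sided, with Benjamini-Hochberg adjustment over all of them. The tested probe with the highest mean stands for a gene in counts over genes. Bounds set each dim array to at least its lowest signal well above background. Gene names are those of the files, and 11 of the 12 probes matched RefSeq by accession. The transporters, lists and tests were chosen with earlier results of these data known. All transporter probes are named, and related genes where they passed or lead their list. No genes most like the fallen transporters are named, since none fell. Some related genes are not reported here and remain in the counts. The steps were tested on simulated data. Figures were drawn with matplotlib 3.10.9.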

Additional observations from a re-analysis of the deposited data

How the results depend on the processing

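In all, 22 alternatives were run: normexp background correction with an offset of 50, other scalings, the authors' divided values, other filters, a term for the slide column or the replicate number, the methods' t-test, the mean of a gene's probes, and leaving out each mouse. No transporter gene or probe was higher under any of them. The count of lower transporter genes was 1 by the unadjusted methods' t-test (Slc22a2) and 0 to 1 without 1 mouse (Slco1a1, without MRL 1). The count of lower transporter probes was 1 with normexp, 1 with the replicate block, 1 by the unadjusted methods' t-test and 0 to 1 without 1 mouse. Without 1 mouse, the log2 change of Slc22a7 ran from -0.203 (without LPR 2) to 0.0630 (without MRL 1; 0.0606 without LPR 1), and that of Slc22a8 from -0.190 (without MRL 1) to 0.0207 (without MRL 3). The related genes lower in LPR mice numbered 20 with normexp, 2 without a filter on dim probes, 2 with the slide column, 4 with the replicate block, 2, 24 and 1 by the methods' t-test on log2 values, unadjusted and on linear values, and 2 to 11 without 1 mouse. Those higher numbered 2 with the mean of a gene's probes and 1 to 2 without 1 mouse. Over the array, the lower probes numbered 4542 with normexp, 1085 without the filter, 456 with the slide column, 1107 with the replicate block, 1346, 7104 and 1327 by these t-tests, and 749 to 2270 without 1 mouse. The higher probes numbered 1469 with the slide column, 1732 and 1448 by the adjusted t-tests on log2 and linear values, and 1968 to 2378 without 1 mouse. The cause of these shifts was not tested. Same-numbered mice did not deviate together beyond 0.1 in every pair (r = 0.146, 0.029 and 0.017 across probes), so the numbers were treated as names only. Differently numbered pairs ran from -0.083 to 0.058. With so few pairs, these values cannot settle whether same-numbered mice were paired. The slide column is the first number of an array's position, which the 3 MRL arrays share with LPR 1 alone. Within that column, LPR 1 was compared with the mean of the MRL mice. By the brightest probes, the difference was between -0.66 for Slco1a1 and 0.04 for Slc22a12. For the dim Slc22a19 probe it was -0.91. Probes at the background, as those of Slco4c1, give no level.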
